A study of Mus musculus with 6 samples.

Results

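The genes described here encode the contractile and matrix-contacting machinery that marks a fibroblast as a myofibroblast, together with serum response factor (Srf), the transcription factor that drives much of it. They were given as a list of 35 symbols, of which 34 had a row in the table of 17525 genes and all 34 passed the expression filter. Lrrc17 was not analysed here. RNA came from cardiac fibroblasts of C57BL/6 mice aged 6 weeks, grown without passaging in serum-rich medium. In 3 samples a lentivirus, added with polybrene at 8 µg/ml, had delivered a short hairpin RNA against Sipa1 with an EGFP reporter, and in 3 samples a scramble control; 72 h later every sample received lipopolysaccharide (LPS, a bacterial cell-wall component) at 1 µg/ml for 24 h. No sample without LPS was analysed here. Whether replicates were independent cultures is not stated, so the p-values cover only sample-to-sample spread, possibly technical.

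Quiescent fibroblasts of the heart become myofibroblasts after injury or on stiff culture plastic: they assemble smooth muscle actin into stress fibres, pull on the matrix and secrete more of it. The switch runs partly through actin itself. Monomeric actin holds the cofactors Mrtfa and Mrtfb in the cytoplasm; when actin assembles into filaments, the cofactors enter the nucleus and bind Srf on a DNA element called the CArG box. Sipa1, the targeted gene, encodes a protein that turns off Rap, a small GTPase that regulates integrin adhesion.

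Srf has CArG boxes in its own promoter, and the windows in which such letters were found are shown because this is the element that Srf binds. RefSeq promoter windows (GRCm38.p6, 250 bases before to 50 after a start) matched 26 of the 34 genes. Tagln, Thbs1, Fn1, Ccn2, Ccn5, Actg2, Fap and Cthrc1 had no window and were not searched. The strict CArG box is CC, a run of A or T, then GG, a pattern that is the same on both strands. Boxes that depart from this pattern were not searched. Windows of 4 of these genes held the strict box, or 15.4%, against 1.66% of the 12205 genes of the table that have a window. The list was drawn up to hold Srf-linked genes and Srf itself, so this difference is a description and not a test. Capitals mark the box in the stretches below, each written 5′ to 3′ on the strand of its gene. A gene can have several windows, and distances are from the start of the window shown. Myl6 has another window (chr10:128493837-128494136), nearer its 5′ end, that held 0 boxes. The Srf window (chr17:46556113-46556412) lies inside the annotated gene, whose 5′ end is at 46558267.
Srf, 82 bases before the start, chr17:46556225-46556254, minus strand: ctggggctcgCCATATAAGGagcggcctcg
Srf, 62 bases before the start, chr17:46556205-46556234, minus strand: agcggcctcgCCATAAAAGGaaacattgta
Cnn2, 56 bases before the start, chr10:79988534-79988563, plus strand: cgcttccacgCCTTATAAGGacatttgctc
Myl6, 50 bases before the start, chr10:128493040-128493069, minus strand: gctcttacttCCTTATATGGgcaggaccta
Myl9, 161 bases before the start, chr2:156775293-156775322, plus strand: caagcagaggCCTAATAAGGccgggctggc

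TEAD factors, which carry the cofactors Yap1 and Wwtr1 (TAZ), bind the letters CATTCC, and these were searched on both strands (GGAATG is the same element on the other one). They were found in the windows of 12 of the 26 genes, or 46.2%, against 14.9% of the 12205 genes. This comparison too is only a description, since the list holds known TEAD targets such as Ccn1. No window of a listed gene held both elements. The examples below are Acta2, the classical myofibroblast gene, and 4 genes whose RNA differed between the groups. Palld has other windows (chr8:61591090-61591389 and chr8:61902658-61902957, the latter at its 5′ end) that did not hold these letters. The Flna window (chrX:74246485-74246784) lies inside the annotated gene, whose 5′ end is at 74249854.
Acta2, 146 bases before the start, chr19:34255504-34255529, minus strand: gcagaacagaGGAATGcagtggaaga
Tpm1, 56 bases before the start, chr9:67049254-67049279, minus strand: gctgtcctaaGGAATGcggtcgcccc
Ccn1, 103 bases before the start, chr3:145650073-145650098, minus strand: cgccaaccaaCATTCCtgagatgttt
Palld, 87 bases before the start, chr8:61760161-61760186, minus strand: acattagcaaCATTCCtgcccaggac
Flna, 146 bases before the start, chrX:74246665-74246690, minus strand: cgttgtggggCATTCCaacgggaggg
A match of letters is a description of the sequence and does not show that a factor was bound. Srf, Cnn2, Myl6 and Myl9, the genes with a strict CArG box in a searched window, did not pass the edgeR test described below. Genes without a window, Tagln, Thbs1 and Fn1 among them, are not covered by this. Of the genes with CATTCC not shown, Myh10, Myl12a and Tagln2 passed that test, while Actn4, Cald1, Lmod1 and Mylk did not. Among genes whose windows held neither element, Actn1, Tpm2 and Tnc passed. Cnn1, Cnn3, Des, Myh9, Postn, Tpm3 and Tpm4 did not. Over all genes tested 32.2% passed, and a link between either element and the change was not tested.

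The libraries held 30930998 to 41839742 reads in genes. Sipa1 itself stood at 17.7, 20.0 and 15.2 CPM (counts per 1e6 reads of TMM-scaled library size) in knockdown and 41.0, 43.7 and 41.4 CPM in scramble libraries (log2 fold change -1.25, SE 0.075, edgeR adjusted p = 2.64e-11). The groups separated on the first principal component (47.3% of the variance), and scramble replicate 2, the shallowest library, stood apart from the other two scramble libraries on the second (15.0%). That library bears on every result below: among the 3 scramble libraries it gave the lowest CPM for 32 of the 34 listed genes, against 40.3% of all genes tested and 51.0% of the 7373 genes with a mean of at least 20 CPM. With library size as the only scaling it was lowest for 23 of the 34, against 25.1% of all genes. Calls that change without it are given beside the gene. Without it 5 uncalled genes changed sign, namely Srf (-0.0097), Cnn3 (-0.016), Tpm4 (-0.0059), Ccn2 (-0.032) and Ccn5 (-0.0019, all log2 fold changes).

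The culture was rich in fibroblast RNA. The 9 fibroblast markers summed to 23256 to 25374 CPM in knockdown and 23370 to 26359 CPM in scramble libraries. In the edgeR test 0 of the 9 rose and 3 fell, namely Tcf21 (log2 -0.84), Pdgfra (-0.30) and Dcn (-0.18). Beside the counts in this paragraph, 16.4% of all genes tested rose and 15.8% fell. Markers of mature smooth muscle, a cell type that shares the contractile genes, were low: 6 markers summed to 115 to 123 CPM in knockdown and 107.5 to 120.2 CPM in scramble libraries, nearly all of it Smtn, and 1 of 6 (Ldb3) rose. Myh11, the defining smooth muscle myosin, averaged 3.59 CPM in knockdown and 3.99 CPM in scramble cells. Pericyte markers (4 of 6 measured) summed to 46.4 to 51.4 CPM in knockdown and 70.3 to 74.1 CPM in scramble libraries, with 2 of 4 (Cspg4 and Rgs5) lower in knockdown and Abcc9 under 1 CPM throughout. Mesothelial markers (5 of 5) summed to 66.6 to 75.6 CPM in knockdown and 39.4 to 42.4 CPM in scramble libraries, and 3 of 5 rose. Of 10 cardiomyocyte markers 4 were measured, 3 of them under 1 CPM in every library; their sum, nearly all Tnnt2, which rose, was 25.5 to 32.7 CPM in knockdown and 20.7 to 22.4 CPM in scramble libraries. The 5 endothelial markers (2 rose) summed to 156.7 to 167 CPM in knockdown and 146 to 163 CPM in scramble libraries. The 6 macrophage markers (Csf1r rose) summed to 146.8 to 150.4 CPM in knockdown and 126 to 141 CPM in scramble libraries. In bulk RNA, fewer cells of a type and less RNA per cell cannot be told apart, and the part of these cell types in the results below was not tested.

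Of the 34 listed genes, 9 were higher and 4 were lower in knockdown than in scramble cells (edgeR adjusted p under 0.05). Tagln, Tpm2, Myh10, Thbs1, Palld, Actn1, Ccn1, Tpm1 and Myl12a were the higher ones, and Tnc, Fn1, Flna and Tagln2 the lower ones. The 26.5% that rose stand beside 16.4% of all 15954 genes tested, and the 11.8% that fell beside 15.8%; together 38.2% of the listed genes and 32.2% of all genes were called. The median log2 fold change was 0.04 over the listed genes and 0.00 over all genes (-0.001 before rounding), and without scramble replicate 2 the listed genes' median was -0.004. In 16 of the 34 genes the 3 knockdown libraries lay wholly above (10) or below (6) the scramble range, against 43.6% of all genes (22.4% above and 21.2% below). The changes were small, with a median size of 0.14 on the log2 scale against 0.16 for all genes, and Tnc, the most changed of the genes called, ranked 2210 by size of change among all genes. The authors' deposited table calls the same 13 genes in the same directions and no other of the 34.

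**Figure D1:**
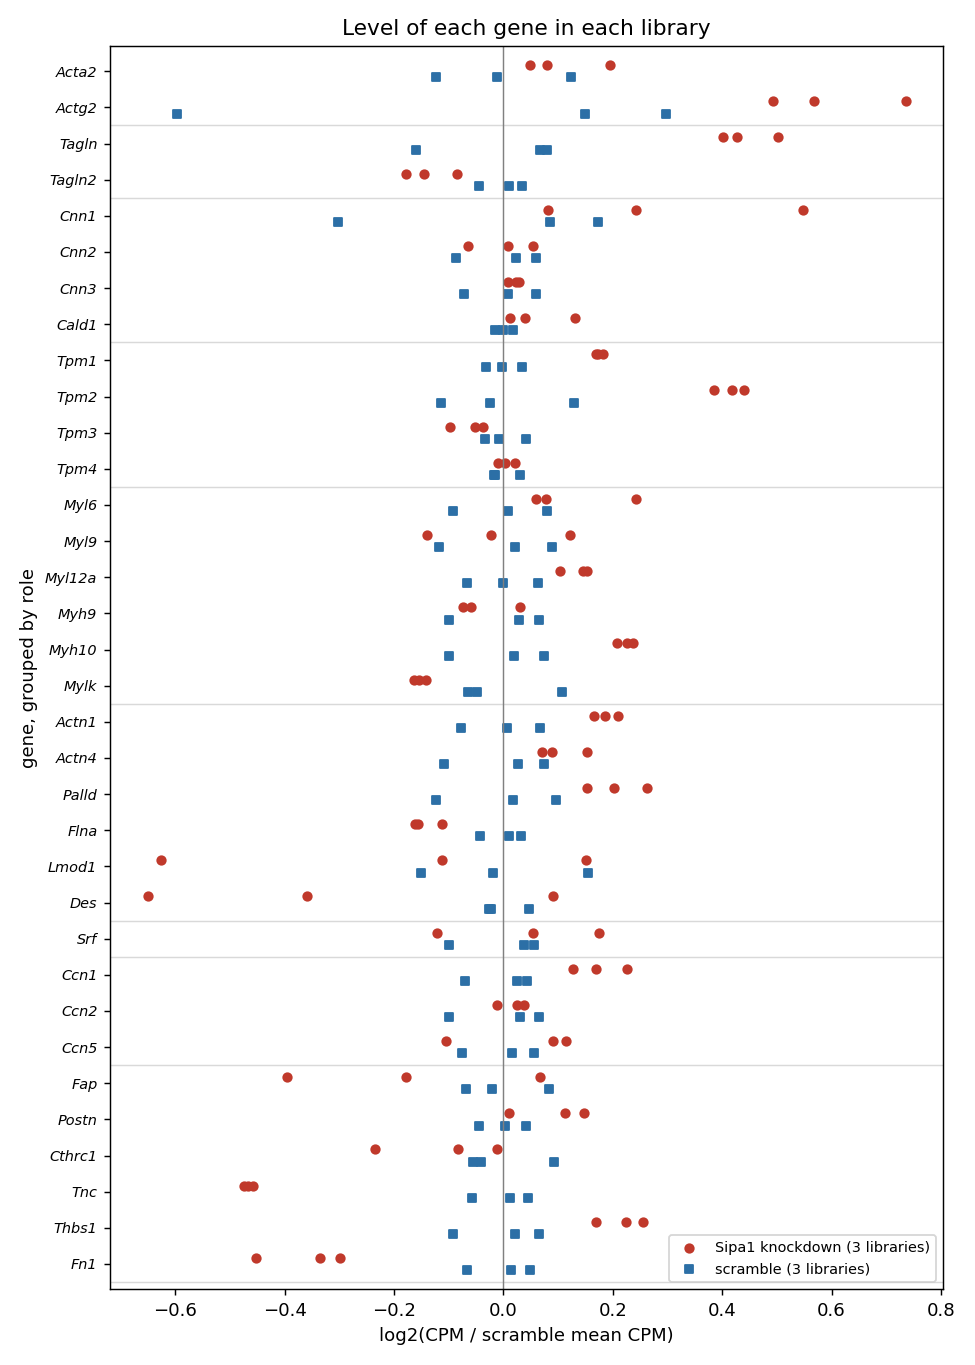
Level of each of the 34 genes in each library, as log2 of CPM over the scramble mean CPM, in rows grouped by role; red circles are the 3 knockdown libraries and blue squares the 3 scramble libraries. Tagln, Tpm1, Tpm2 and Myh10 have all knockdown points to the right of all scramble points, Tnc and Fn1 have them to the left, and Srf, Ccn2 and Myl9 overlap.

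Smooth muscle actin, the defining protein of the myofibroblast, was little different. Acta2 (NCBI gene 11475; GRCm38 chr19:34240336-34255585) had 336, 309.8 and 303 CPM in knockdown libraries, against 319.6, 269 and 291 CPM in scramble libraries. The ranges overlap, since scramble replicate 1 lies above 2 of the knockdown libraries. The log2 fold change of 0.11 (SE 0.054, 95% interval -0.005 to 0.22, edgeR adjusted p = 0.139) did not pass; it passed without scramble replicate 1 (0.18, edgeR adjusted p = 0.0212) and, without scramble replicate 2, came to 0.05 (edgeR adjusted p = 0.525). Actg2, the smooth muscle gamma actin of gut and vessel walls, was barely present at 57, 59 and 64 reads in knockdown and 27, 40 and 47 reads in scramble libraries. Its knockdown libraries lie above its scramble libraries, but the log2 fold change of 0.61 (SE 0.25, edgeR adjusted p = 0.0626) missed the threshold, passed without scramble replicate 2 (0.77, edgeR adjusted p = 0.0340) and came to 0.38 without scramble replicate 1 (edgeR adjusted p = 0.305). Actins are close paralogs that share sequence, so the split of reads between them is uncertain.

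Transgelins, small proteins that bind and stabilise actin filaments, moved in opposite directions. Tagln (SM22alpha, an early smooth muscle marker; NCBI gene 21345, chr9:45929628-45936058) had 293, 273 and 278 CPM in knockdown libraries, against 217, 185 and 219 CPM in scramble libraries. It was 36.0% higher in knockdown cells (log2 0.44, SE 0.054, 95% interval 0.33 to 0.56, edgeR adjusted p = 1.62e-06), and the lowest knockdown library stood well above the highest scramble one. Pcsk7, on the opposite strand, overlaps Tagln in the annotation and averaged 47.3 CPM over all libraries. Tagln2, the relative found in most cell types, was more abundant, with 1006, 1074 and 1029.9 CPM in knockdown libraries against 1147, 1103 and 1165 CPM in scramble libraries. It fell by 8.95% (log2 -0.14, SE 0.045, edgeR adjusted p = 0.0246), a call lost without knockdown replicate 1 (0.104) or 3 (0.0905), without scramble replicate 1 (0.0850) or 3 (0.124), and on FPKM values (0.0657 to 0.0909).

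Calponins and caldesmon restrain the myosin motor on actin filaments, and 0 of these 4 genes passed the edgeR test, with 0 at an unadjusted p under 0.05 and 0 called in the authors' deposited table. Cnn1, the smooth muscle calponin, had 2.16, 1.93 and 2.66 CPM in knockdown and 2.06, 1.48 and 1.93 CPM in scramble libraries, so its interval (log2 -0.12 to 0.70) is wide. The broadly expressed Cnn2 had 301, 278 and 292 CPM in knockdown and 302, 273 and 295 CPM in scramble libraries, with an interval of -0.10 to 0.10. Those of Cnn3 (-0.07 to 0.11) and Cald1 (-0.03 to 0.16) were as narrow. In 3 of these 4 genes a log2 change beyond 0.16 in either direction therefore lies outside the interval.

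Tropomyosins are coiled rods that lie along the actin filament and set which proteins reach it. Tpm1 and Tpm2 rose, while Tpm3 and Tpm4 did not pass. Tpm2 (NCBI gene 22004, chr4:43513726-43523583) had 100.3, 98.9 and 96.6 CPM in knockdown libraries, against 80.9, 68.3 and 72.7 CPM in scramble libraries, a rise of 33.1% (log2 0.41, SE 0.053, edgeR adjusted p = 1.92e-06). Tpm1 had 532, 534 and 537 CPM in knockdown libraries, against 485, 463 and 473 CPM in scramble libraries. Its knockdown libraries lie close together and above every scramble library (log2 0.17, SE 0.041, edgeR adjusted p = 0.00219). Tpm4, the most abundant of the family per transcript length, averaged 1187 ± 23.4 TPM in knockdown and 1201 ± 30.9 TPM in scramble cells (SD, n = 3 each), with a log2 interval of -0.08 to 0.09, and Tpm3 stood at -0.06 (SE 0.042). TPM, a share of all transcripts scaled for length, is used here where levels of different genes are compared.

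Nonmuscle myosin II is the motor of stress fibres, a hexamer of heavy chains, essential light chains and regulatory light chains. Its second heavy chain rose and its main one did not pass. Myh10 (the IIB heavy chain) had 154, 152 and 155 CPM in knockdown libraries, against 139, 123 and 134 CPM in scramble libraries, with no overlap (log2 0.22, SE 0.046, edgeR adjusted p = 5.89e-04). Myh9 (the IIA heavy chain), at 1171, 1102 and 1089.8 CPM in knockdown and 1200.5, 1071 and 1169.6 CPM in scramble libraries, overlapped throughout (log2 -0.03, SE 0.049). Among the regulatory light chains, Myl12a had 703, 679 and 699 CPM in knockdown libraries, against 660.2, 604 and 632 CPM in scramble libraries (log2 0.13, SE 0.045, edgeR adjusted p = 0.0244). That call was lost without scramble replicate 2 (0.103) or 3 (0.0778), without knockdown replicate 1 (0.0672) or 3 (0.0829) and on filtered FPKM values (0.0611 to 0.0754). Myl12b, a near copy beside Myl12a, was added after its values were seen, and in the annotation the genes overlap on the same strand. Myl12b went the other way, at 85.6 CPM in knockdown and 109.9 CPM in scramble cells (log2 -0.36, SE 0.053, edgeR adjusted p = 1.4e-05). The log2 read ratio of Myl12a to Myl12b was 0.49 higher in knockdown cells (SE 0.054), and how the counting split reads between them was not tested, so the direction of each is uncertain. Myl9, the regulatory chain of smooth muscle, had 29.5, 24.6 and 26.7 CPM in knockdown and 28.8, 24.95 and 27.5 CPM in scramble libraries (log2 -0.01, SE 0.071). The essential chain Myl6 stood at 0.13 (SE 0.052, edgeR adjusted p = 0.0629), above the threshold. Mylk, the kinase that switches regulatory chains on, was low at 5.41 ± 0.043 CPM in knockdown and 6.02 ± 0.40 CPM in scramble cells (SD, n = 3 each; log2 -0.15, SE 0.11).

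Proteins that bundle and anchor actin were divided. Actn1 (alpha-actinin-1, which crosslinks filaments in stress fibres and adhesions) had 1039, 1007 and 1021 CPM in knockdown libraries, against 941, 851 and 903 CPM in scramble libraries (log2 0.19, SE 0.046, edgeR adjusted p = 0.00308). Palld (palladin, a stress fibre scaffold) had 120.3, 116 and 112 CPM in knockdown libraries, against 102, 92.2 and 107 CPM in scramble libraries (log2 0.20, SE 0.051, edgeR adjusted p = 0.00328). In both genes every knockdown library was above every scramble library. Flna (filamin A, which ties crossed filaments to integrins) went the other way, with 1768, 1708 and 1715 CPM in knockdown libraries against 1925, 1854 and 1954 CPM in scramble libraries (log2 -0.14, SE 0.045, edgeR adjusted p = 0.0175). The Flna call was lost without knockdown replicate 3 (0.0771) or scramble replicate 1 (0.0683) or 3 (0.0999). Actn4 stood at 0.10 (SE 0.048, edgeR adjusted p = 0.108). The smooth muscle actin nucleator Lmod1 and the muscle intermediate filament gene Des had under 5 CPM in every library, and their log2 intervals, -0.55 to 0.23 and -0.62 to 0.06, are too wide to place them.

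Srf (NCBI gene 20807, chr17:46546838-46558267) had 64.0, 52.1 and 58.9 CPM in knockdown libraries, against 58.2, 52.9 and 59.0 CPM in scramble libraries. The groups overlapped, with a log2 fold change of 0.04 (SE 0.064, 95% interval -0.09 to 0.17, edgeR adjusted p = 0.699). The RNA level of a factor does not measure its activity.

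**Figure D2:**
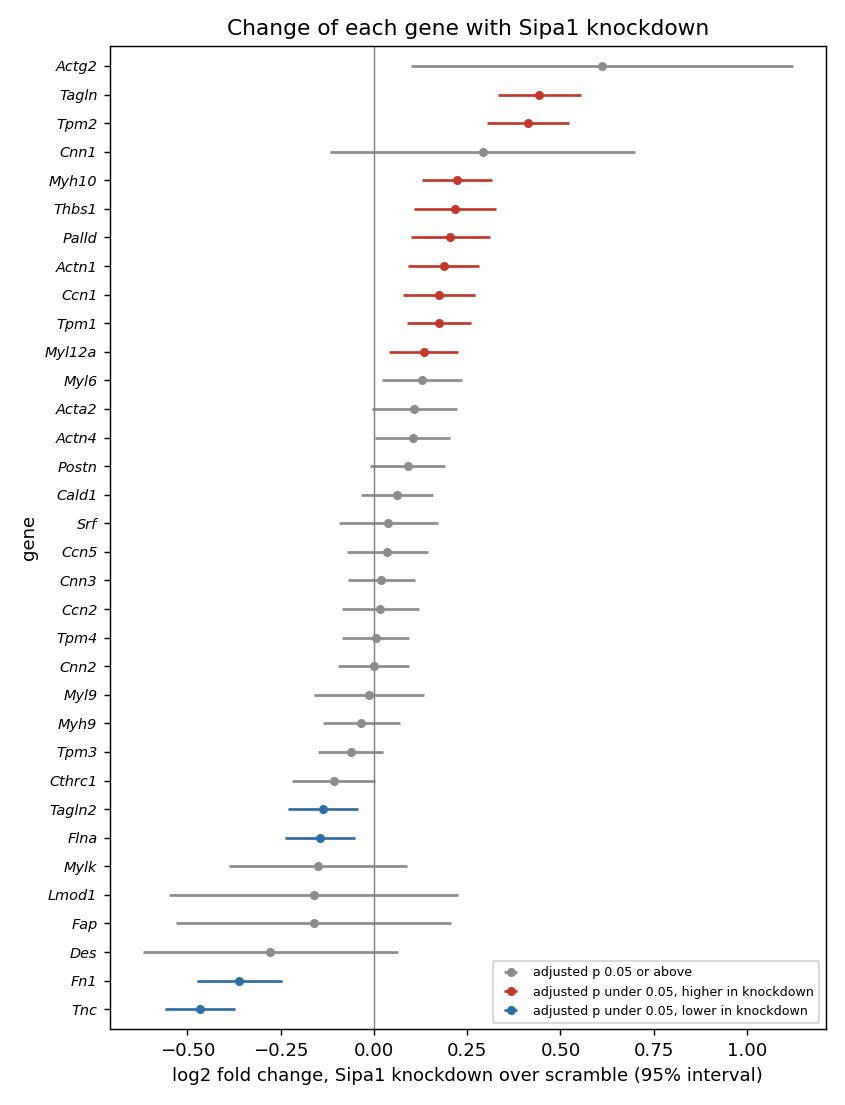
Log2 fold change of each of the 34 genes, knockdown over scramble, with its 95% interval from the edgeR fit; red genes were higher and blue genes lower at an adjusted p under 0.05, and grey genes did not pass. Actg2, Cnn1, Lmod1, Des and Fap have the widest intervals, and the called genes other than Tagln, Tpm2, Fn1 and Tnc are no larger than that of Myh10 (0.22).

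The CCN genes encode matricellular proteins. Among them Ccn1 and Ccn2 are rapid targets of both Srf and the TEAD factors. Ccn1 (Cyr61) had 1092, 1020.3 and 1050.1 CPM in knockdown libraries, against 962.5, 889 and 949 CPM in scramble libraries, with no overlap (log2 0.17, SE 0.046, edgeR adjusted p = 0.00544). Ccn2 (connective tissue growth factor), the more abundant, had 2227, 2152 and 2207 CPM in knockdown libraries, against 2268, 2024 and 2214 CPM in scramble libraries. It overlapped, with an interval of -0.08 to 0.12. Ccn5, which lacks the C-terminal domain of the others, averaged 354 ± 28.7 CPM in knockdown and 345 ± 16.0 CPM in scramble cells (SD, n = 3 each; log2 0.04, SE 0.052).

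Tnc and Fn1 fell and Thbs1 rose among the secreted genes. All 3 encode proteins of the provisional matrix laid down after injury, and Thbs1 and Fn1 had the highest TPM of the 34 listed genes. Tnc (tenascin C, which loosens adhesion in healing tissue; NCBI gene 21923, chr4:63959785-64047015) had 1139.5, 1147 and 1133 CPM in knockdown libraries, against 1588, 1513 and 1624 CPM in scramble libraries. It fell by 27.6% (log2 -0.47, SE 0.045, edgeR adjusted p = 3.11e-08), and its knockdown values lie close together. Fn1 (fibronectin; NCBI gene 14268, chr1:71585473-71653280) had 11953, 12270.3 and 11025 CPM in knockdown libraries, against 15612, 14406 and 15243 CPM in scramble libraries, and fell by 22.1% (log2 -0.36, SE 0.055, edgeR adjusted p = 1.94e-05). Thbs1 (thrombospondin-1, which activates latent TGF-beta; NCBI gene 21825, chr2:118111876-118127133) had 11637, 11887 and 11209 CPM in knockdown libraries, against 10111, 9345 and 10427 CPM in scramble libraries, and rose by 16.2% (log2 0.22, SE 0.053, edgeR adjusted p = 0.00299). In length-scaled units Thbs1 averaged 4539 ± 123 TPM in knockdown cells and 3959 ± 114 TPM in scramble cells, and Fn1 averaged 3365 ± 176 TPM in knockdown cells and 4376 ± 57.4 TPM in scramble cells (SD, n = 3 each). Thbs1 thus stood above Fn1 in knockdown cells, and Fn1 above Thbs1 in scramble cells.

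The markers most often used for activated cardiac fibroblasts did not pass. Postn (periostin) had 1890.2, 2079 and 2032 CPM in knockdown libraries, against 1931, 1821 and 1881 CPM in scramble libraries (log2 0.09, 95% interval -0.01 to 0.19). Cthrc1, a secreted marker of reparative fibroblasts, averaged 109 ± 8.46 CPM in knockdown and 117 ± 6.70 CPM in scramble cells (SD, n = 3 each; log2 -0.11, SE 0.054, edgeR adjusted p = 0.138). Fap, a surface protease of activated fibroblasts, had only 81, 76 and 96 reads in knockdown and 96, 74 and 107 reads in scramble libraries, and its log2 interval (-0.53 to 0.21) is wide.

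Ratios of 2 genes in the same library are free of the library scaling, and 11 pairs were compared after the values had been seen. In 10 of the 11 the log2 ratio of reads of all knockdown libraries lay to 1 side of all scramble libraries, against 40.4% of all pairs of tested genes. Of the pairs 3 share Tpm4 and 2 share Actb, so they are not separate observations. Several also join a called gene to an uncalled or oppositely called one. With pairs picked in this way, neither the 40.4% nor the p-values that follow give a fair test. A permutation test (exact, two-sided) enumerates all 20 divisions of the libraries. It gave 0.1 for each of the 10 pairs, the smallest value that 3 against 3 libraries allow. After Benjamini-Hochberg adjustment over the 11 pairs that value is 0.11. The ratio of Tagln to Tagln2 was higher in knockdown cells by 0.58 (SE 0.079) on the log2 scale, that of Tpm2 to Tpm4 by 0.41 (SE 0.060), that of Myh10 to Myh9 by 0.26 (SE 0.034) and that of Actn1 to Actn4 by 0.08 (SE 0.020). Without scramble replicate 2 these differences were 0.53, 0.37, 0.26 and 0.10. Only Cnn2 to Cnn3 overlapped (-0.02, SE 0.035; exact permutation p = 0.8).

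In shares of a family's TPM, Tagln made up 20.2%, 18.1% and 19.0% of both transgelins in knockdown libraries, against 14.1%, 12.8% and 14.1% in scramble libraries. Tpm2 made up 4.39% ± 0.051 of the 4 tropomyosins in knockdown and 3.41% ± 0.20 in scramble cells, and Tpm1 29.6% ± 0.46 and 27.2% ± 0.48 (SD, n = 3 each). Tpm3 (16.1% ± 1.34 in knockdown and 17.5% ± 1.07 in scramble cells) overlapped, and so did Cnn2 (53.1% ± 1.01 in knockdown and 53.6% ± 0.23 in scramble cells) and Cnn3 among the calponins, with exact permutation p of 0.3, 0.8 and 0.9 (SD, n = 3 each). Myh10 made up 11.6% ± 0.41 of both heavy chains in knockdown and 9.88% ± 0.049 in scramble cells (SD, n = 3 each). The summed TPM of the 24 contractile genes was nearly level at 10946 ± 64.8 in knockdown and 10720.3 ± 133 in scramble cells (SD, n = 3 each), a ratio of 1.02. That sum gave an exact two-sided permutation p of 0.1, the smallest possible.

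**Figure D3:**
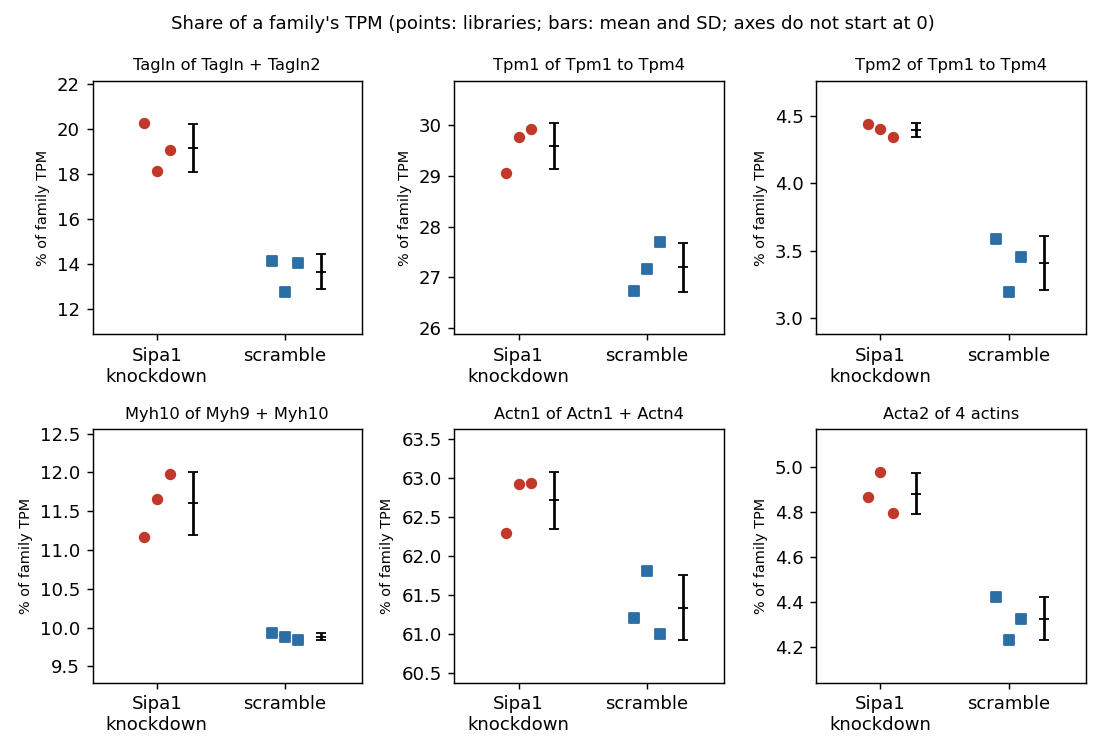
Share of a family's TPM taken by 1 gene, in percent, in each knockdown (red circles) and scramble (blue squares) library, with mean and SD beside the points; vertical axes do not start at 0. The 6 genes are ones whose share was higher in knockdown, chosen after the values were seen: in each panel the knockdown libraries lie above the scramble libraries, by 5.49 percentage points for Tagln and 0.56 points for Acta2 among Acta2, Actg2, Actb and Actg1.

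The cytoplasmic actins were measured by the same 4-gene share. Actb, itself an Srf target, made up 49.2% ± 0.14 of the TPM of Acta2, Actg2, Actb and Actg1 in knockdown and 55.7% ± 0.42 in scramble cells, and Actg1 made up 45.8% ± 0.10 in knockdown and 39.9% ± 0.38 in scramble cells (SD, n = 3 each). The share of Acta2 was 4.87%, 4.98% and 4.80% in knockdown libraries and 4.42%, 4.23% and 4.32% in scramble libraries, which do not overlap, although Acta2 alone did not pass the test. The Acta2 to Actb ratio differed by 0.36 (SE 0.029) on the log2 scale, where Actb itself fell by 0.25 (SE 0.053, edgeR adjusted p = 7.78e-04). Actg1 alone, at 0.13 (SE 0.053, edgeR adjusted p = 0.0774), did not pass, and its CPM ranges overlapped.

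Other genes of the same pathways were taken from 2 lists. Of 27 Srf cofactors and further Srf targets, 9 rose (33.3%, against 16.4% of all genes) and 3 fell (11.1%, against 15.8%), with a median log2 fold change of 0.09. Csrp1, a LIM protein of actin bundles (0.42, SE 0.045, edgeR adjusted p = 1.31e-07), and Elk3, a ternary complex partner of Srf (0.40, SE 0.042, edgeR adjusted p = 1.33e-07), rose. Csrp2 fell by 0.50 and Actb by 0.25. The cofactor genes were near level: Mrtfa stood at 46.5 ± 1.20 CPM in knockdown and 43.4 ± 1.82 CPM in scramble cells, and Mrtfb at 42.3 ± 2.05 and 41.5 ± 0.97 CPM (SD, n = 3 each; edgeR adjusted p = 0.158 and 0.748). Myocd, the cofactor of muscle cells, averaged 1.09 CPM in knockdown and 0.90 CPM in scramble cells.

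Among 26 TEAD cofactors and targets 9 rose (34.6%, against 16.4% of all genes) and 7 fell (26.9%, against 15.8%), with a median of 0.09. Arhgef17 (0.51, SE 0.042, edgeR adjusted p = 2.66e-09), and Ankrd1, a stretch-induced nuclear protein that the Srf list also holds, rose. Ankrd1 averaged 1195 ± 65.7 CPM in knockdown and 927 ± 22.2 CPM in scramble cells (SD, n = 3 each; edgeR adjusted p = 2.33e-06). Gadd45a fell by 0.73 and the factor Tead2 by 0.46. The cofactors, chosen after their values were seen, differed in sign, with Yap1 at -0.22 (SE 0.042, edgeR adjusted p = 2.39e-04) and Wwtr1 at 0.20 (SE 0.044, edgeR adjusted p = 0.00114).

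**Figure D4:**
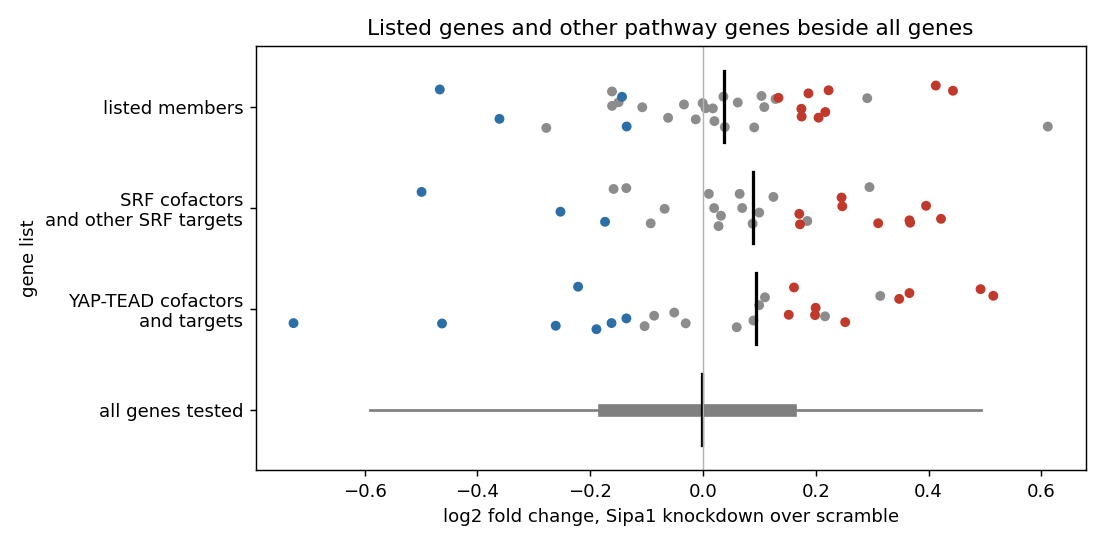
Log2 fold change, knockdown over scramble, of the 34 listed genes and of the 2 lists of other pathway genes; red points rose and blue points fell at an adjusted p under 0.05, grey points did not pass, and black bars are medians. For all 15954 genes tested the thick bar spans the 25th to 75th percentile (-0.18 to 0.15) and the thin line the 5th to 95th (-0.59 to 0.49); the medians of the lists, 0.04 to 0.09, lie inside the thick bar.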

How the data were processed

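Poly(A) RNA of 6 libraries was sequenced with paired reads of 100 bases after a strand-marking preparation, per the labels' protocols. The submitters' processing notes list HISAT2, StringTie and build mm10, without roles. Whether counting used strand is not stated. The authors deposited 1 table, repeated for all 6 samples, with whole-number read counts per gene, not normalized. It also holds FPKM and TPM values made by the authors, per the file headers, and a signed fold score and adjusted p-value of the authors' own comparison. A further 6 per-sample columns were not used.

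Counts were fitted in R 4.3.3 with edgeR 4.0.16: its default filter, TMM scaling and a robust quasi-likelihood model of group, tested two-sided. Benjamini-Hochberg adjustment ran over the 15954 genes left of 17525, with a threshold of 0.05. CPM is relative to the TMM-scaled library size. SE is the log2 fold change over the root of F, and intervals cover 95%. The fit was tested on simulated counts with changes planted in both directions. It called 56.7% of those of size 0.3 (log2), 80.6% of size 0.5 and 97.0% of size 1. Changes were planted in 200 genes, whereas 5139 genes were called in the data. The adjustment depends on how many genes change, so these rates need not hold for the data. Smaller changes were not planted, and the median size among the listed genes was 0.14.

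The members and the gene lists were chosen with earlier results of these data known. Every member is named, with library values for those past the threshold and 10 fixed ones. Of each pathway list the 2 higher and 2 lower genes with the smallest adjusted p are named, and exceptions are marked. A further gene list is not reported here. Promoter windows (RefSeq, GRCm38.p6) were searched with Python 3.11.15. Alternatives were RLE or library-size scaling, other filters, DESeq2 1.42.0, limma 3.58.1 (voom, or FPKM with pseudocounts 1 and 0.1), an ordinary in place of a robust fit, replicate number as block, and each library left out.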

Additional observations from a re-analysis of the deposited data

How the results depend on the processing

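Of the 13 called genes 10 kept their direction and their side of the threshold in all 17 alternatives, and the exceptions were Tagln2, Myl12a and Flna, described above; none of the 13 changed sign. The count of higher genes ran from 8 to 11 and that of lower genes from 2 to 5 when single libraries were left out, with 2 without knockdown replicate 3, scramble replicate 1 or scramble replicate 3. Over all genes, leaving out a library gave 2128 to 2433 higher and 2024 to 2384 lower.

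With the replicate block 11 listed genes were higher and 4 lower; Acta2 (0.11, edgeR adjusted p = 0.0473) and Myl6 (0.13, edgeR adjusted p = 0.0211) then passed. Over all genes the block gave 2710 higher and 2597 lower, against 2613 and 2526 without it. Whether same-numbered libraries were paired is not stated. Their deviations correlated at 0.0041, -0.0091 and -0.010, which cannot settle it with 3 libraries per group. Myl6 also passed with library size only (0.0461) and without scramble replicate 1 (0.0342), Actg2 with limma-voom (0.0496) and without scramble replicate 2 (0.0340), Des without knockdown replicate 1 (-0.50, 0.0273) and Cthrc1 without knockdown replicate 2 (-0.17, 0.0375), all edgeR adjusted p apart from voom.

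Sign changes occurred only among 9 uncalled listed genes and in Mrtfb. Cnn2 came to 0.0026 on each FPKM scale, 0.0049 without a filter and 3.8e-04 with the block; Tpm4 came to -0.0058 with the CPM filter and -6.0e-04 with library size only. Leaving out single libraries gave -0.044 to 0.030 for Cnn2, -0.016 to 0.051 for Cnn3, -0.013 to 0.020 for Tpm4, -0.083 to 0.041 for Myl9, -0.083 to 3.4e-04 for Myh9, -0.36 to 0.024 for Lmod1, -0.033 to 0.11 for Srf, -0.032 to 0.051 for Ccn2, -0.0030 to 0.10 for Ccn5 and -0.021 to 0.058 for Mrtfb.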

Other observations

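Mylk gave different pictures in different units. Its TPM was 1.61, 1.56 and 1.57 in knockdown libraries and 1.67, 3.36 and 2.75 in scramble libraries, while its reads were 205, 220 and 203 in knockdown and 232, 206 and 238 in scramble libraries. On log2(FPKM + 0.1) the difference was -0.56, against -0.15 in the count fit, and neither passed the threshold. The cause was not tested.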
